A study of Homo sapiens with 2 samples.

Results

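Sterol synthesis and intracellular sterol control were examined in Huh7 cells with a CD24 hairpin as a group of 33 genes. They were chosen by name from the mevalonate and sterol pathway and its regulation, with earlier results of these data known. Of these, 31 were measured by a probe set that named a single gene, on 69 probe sets, out of 19775 genes and 41091 such probe sets in all. FDFT1 was not analysed here, and CYP51A1 had only probe sets that also name LRRD1. Huh7 is an established human hepatocellular carcinoma cell line. The knockdown culture carried a short hairpin RNA (shRNA), stably introduced by lentivirus, against the cell surface glycoprotein CD24, and the other culture carried a non-target control hairpin by the same route. Both cultures were grown in serum-containing DMEM with penicillin and streptomycin. Total RNA of each was measured on 1 Affymetrix array, so each group held 1 sample. The sources used here state neither the hairpin's sequence nor how many clones each culture came from.

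Cells make cholesterol from acetyl-CoA through mevalonate and squalene. When sterol in the endoplasmic reticulum is low, SCAP escorts the transcription factor SREBP2, the product of SREBF2, to the Golgi, where proteases release its active part, and INSIG proteins hold the complex back when sterol is plentiful. In liver cells the pathway supplies sterol for membranes, lipoproteins and bile acids.

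The deposited log2 values had been centred per probe set: the CD24 shRNA and the control value mirror each other around 0, and the level is not in the table. Each gene is given by its log2 difference, CD24 shRNA minus control, averaged over its probe sets. The error shown is the SD over those probe sets and leaves out any variation between cultures. With 1 array per group there is no replicate check and no p-value, and precision is limited by the number of arrays. CD24 itself had a mean centred value of -0.68 in the CD24 shRNA array, against 0.68 in the control array, a difference of -1.37 ± 0.38 (SD, 6 probe sets). The pooled SD between probe sets of a gene was 0.27 over 10523 genes and 0.23 over the 18 sterol genes with several probe sets. Scaling the arrays on the hybridisation controls instead adds 0.11 to every difference, so a negative difference smaller in size than that has no settled sign. Of the probe sets of hepatocyte markers such as ALB and TTR, 5 of 23 were placed at a log2 level of 8 or more and 1 below 4, from the number format of the values. Below 4 lay 9 of 21 probe sets of fibroblast and stellate cell markers, 4 of 9 of endothelial and 3 of 7 of immune markers. Over all 41091 probe sets used, 25.7% were placed below 4, 163 at 8 or more, and 26087 could not be placed. Unplaced were 15 of 23 hepatocyte, 11 of 21 fibroblast and stellate, 5 of 9 endothelial and 4 of 7 immune marker probe sets. An unplaced probe set has no known level. Hepatocyte markers had a median difference of -0.06 (9 genes), but ranged from -0.45 in TF to 0.59 in FGB, which was 1.51-fold higher. Fibroblast and stellate cell markers had a median of 0.16 (6 genes, 5 above 0, led by LUM on probe sets below 4). Their part in the results was not tested. In RNA of a whole culture, fewer cells that make a transcript and less of it per cell cannot be told apart.

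Sterol genes were lower with CD24 shRNA as a group, by small steps. Of the 31 measured genes, 29 lay below 0, or 93.5%, against 47.5% of all genes, and with the scaling on hybridisation controls 25 did, against 28.6% of all genes. Their median difference was -0.30, against 0.00 over all genes. Counted at a 1.5-fold difference, 6 genes were lower, or 19.4%, against 2.38% of all genes, and none was higher, against 2.63% of all genes. None was 2-fold lower, against 0.485% of all genes. The 6 were INSIG1 at 1.87-fold, SQLE at 1.83-fold, HSD17B7 at 1.82-fold, FDPS at 1.76-fold, STARD4 at 1.56-fold and EBP at 1.55-fold lower. With the scaling on hybridisation controls STARD4 lay at -0.53 and EBP at -0.52 and no longer reached 1.5-fold. The 17 measured synthesis enzymes had a median of -0.42 and all lay below 0, PMVK on the other side with that scaling. The 14 genes of control and transport had a median of -0.18, with 12 below 0. The difference between these medians was not tested. Because the genes were chosen with earlier results of these data known, the counts and shares are description only. Of the 69 probe sets, 62 lay below 0, or 89.9%, against 45.7% of all probe sets. Some, such as those of PMVK at -0.03 and STARD3 at -0.05, lay within the 0.11 that the hybridisation control scaling adds, so their sign is not settled.

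**Figure D1:**
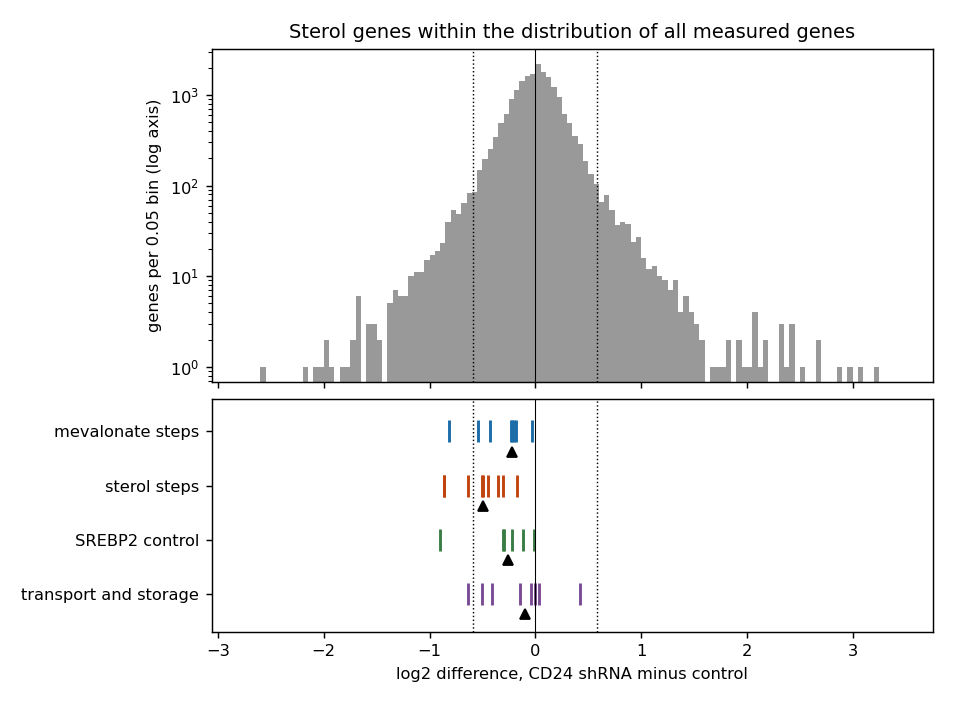
Top: number of genes per bin (log axis) by log2 difference between the CD24 shRNA and the control array, positive where the CD24 shRNA array is higher, for all 19775 genes. Bottom: each sterol gene as a tick, by group, with the group median as a triangle; dotted lines mark 1.5-fold. The ticks lie mostly left of 0, with 6 of them at or beyond 1.5-fold lower and none beyond 1.5-fold higher.

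The stretches of DNA before the start sites of these genes are shown because the genes shared a direction. SREBP2 is known to bind sterol regulatory elements, usually beside sites of the factors NF-Y and SP1. RefSeq promoters (GRCh38.p14) were found for 28 of the 31 measured genes. The 250 bases before each annotated start site were searched on both strands for TCACNCCAC, an SRE-like motif, for CCAAT, the NF-Y motif, and for GGGCGG, the GC box of SP1. Neighbouring GC boxes can overlap, as in INSIG1 and NPC2, and the other motifs found in the stretches shown do not overlap one another. Shown are 5 of the 6 genes past 1.5-fold, SREBF2, which held the exact SRE-like motif, and NPC2, the gene with the largest positive difference, at its upstream start site of those annotated. Each runs 5′ to 3′ on the strand of its gene and ends just before the start site, with matches in capitals.
INSIG1, chr7:155297628-155297877, plus strand: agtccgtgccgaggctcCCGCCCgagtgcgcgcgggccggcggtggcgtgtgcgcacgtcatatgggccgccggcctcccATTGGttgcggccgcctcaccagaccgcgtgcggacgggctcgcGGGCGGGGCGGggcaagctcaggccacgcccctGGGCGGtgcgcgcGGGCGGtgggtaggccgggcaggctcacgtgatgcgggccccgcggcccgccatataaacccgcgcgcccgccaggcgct
HSD17B7, chr1:162790452-162790701, plus strand: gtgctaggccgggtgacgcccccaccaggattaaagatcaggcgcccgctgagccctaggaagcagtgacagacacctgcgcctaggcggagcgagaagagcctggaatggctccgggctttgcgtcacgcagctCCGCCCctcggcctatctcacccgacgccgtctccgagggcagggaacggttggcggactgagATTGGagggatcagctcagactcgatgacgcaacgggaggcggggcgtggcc
FDPS, chr1:155308616-155308865, plus strand: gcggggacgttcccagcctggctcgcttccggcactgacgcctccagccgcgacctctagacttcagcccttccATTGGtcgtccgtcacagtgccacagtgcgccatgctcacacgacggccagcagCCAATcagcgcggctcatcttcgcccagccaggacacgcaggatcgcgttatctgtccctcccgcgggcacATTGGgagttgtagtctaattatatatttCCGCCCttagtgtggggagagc
STARD4, chr5:111512536-111512785, minus strand: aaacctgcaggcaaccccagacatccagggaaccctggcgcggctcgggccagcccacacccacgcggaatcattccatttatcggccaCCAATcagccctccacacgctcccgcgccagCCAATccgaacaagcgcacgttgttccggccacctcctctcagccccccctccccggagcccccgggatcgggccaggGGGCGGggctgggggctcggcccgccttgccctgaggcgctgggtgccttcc
EBP, chrX:48521558-48521807, plus strand: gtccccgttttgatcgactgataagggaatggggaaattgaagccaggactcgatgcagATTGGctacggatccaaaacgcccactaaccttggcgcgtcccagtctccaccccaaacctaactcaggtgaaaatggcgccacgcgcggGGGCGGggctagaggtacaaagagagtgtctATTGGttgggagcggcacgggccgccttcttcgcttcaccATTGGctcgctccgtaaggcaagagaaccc
SREBF2, chr22:41832855-41833104, plus strand: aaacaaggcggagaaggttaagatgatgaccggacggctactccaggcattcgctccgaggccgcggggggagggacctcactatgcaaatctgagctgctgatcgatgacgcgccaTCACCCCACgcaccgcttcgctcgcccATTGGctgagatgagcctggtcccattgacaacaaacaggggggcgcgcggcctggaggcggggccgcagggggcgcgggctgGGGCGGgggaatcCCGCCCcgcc
NPC2, chr14:74493513-74493762, minus strand: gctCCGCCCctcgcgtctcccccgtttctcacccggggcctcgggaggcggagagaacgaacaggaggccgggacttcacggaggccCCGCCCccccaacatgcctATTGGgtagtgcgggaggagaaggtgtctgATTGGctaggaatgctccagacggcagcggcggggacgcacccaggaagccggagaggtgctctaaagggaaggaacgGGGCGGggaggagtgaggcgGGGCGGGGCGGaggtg

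CCAAT stood in the promoters of 14 of 15 synthesis enzymes, or 93.3%, and of 7 of 13 control and transport genes, or 53.8%, against 39.7% of the 15384 measured genes with a promoter. Among the enzymes the exception was PMVK, whose difference was -0.03. GGGCGG stood in 93.3% of the enzymes and 84.6% of the control and transport genes, against 62.3% of measured genes. The exact TCACNCCAC stood in SREBF2 alone of the 28, 133 bases before the start site, against 1.14% of measured genes. With at most 1 mismatch it stood in 46.7% of enzymes and 23.1% of control and transport genes, against 26.3% of measured genes. Across all measured genes, those with CCAAT had a median difference of 0.00, as had those without. Among the 28 sterol genes the median difference was -0.35 for the 21 with CCAAT and -0.12 for the 7 without, a description with no test. Of the 21, 14 were enzymes, and of the 7 only PMVK was, so the split overlaps that between enzymes and other genes. Within the control and transport genes the medians were -0.30 for the 7 with CCAAT and -0.13 without. The enzymes had -0.40 with CCAAT, against -0.03 in PMVK. These differences were not tested. For GGGCGG the 28 had medians of -0.30 with and -0.12 without. The control and transport genes had -0.22 with GGGCGG and -0.07 without. The enzymes had a median of -0.33 with it, and NSDHL, the only enzyme without, lay at -0.45. For TCACNCCAC with at most 1 mismatch the 28 had -0.30 with and -0.22 without, and the control and transport genes -0.30 and -0.13. The enzymes went the other way, at -0.30 with and -0.47 without. NPC2, which was higher, held CCAAT on the minus strand 144 and 114 bases before its upstream start site and not in the 250 bases before its other start site. These matches describe letters in a window and are not evidence of binding.

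**Figure D2:**
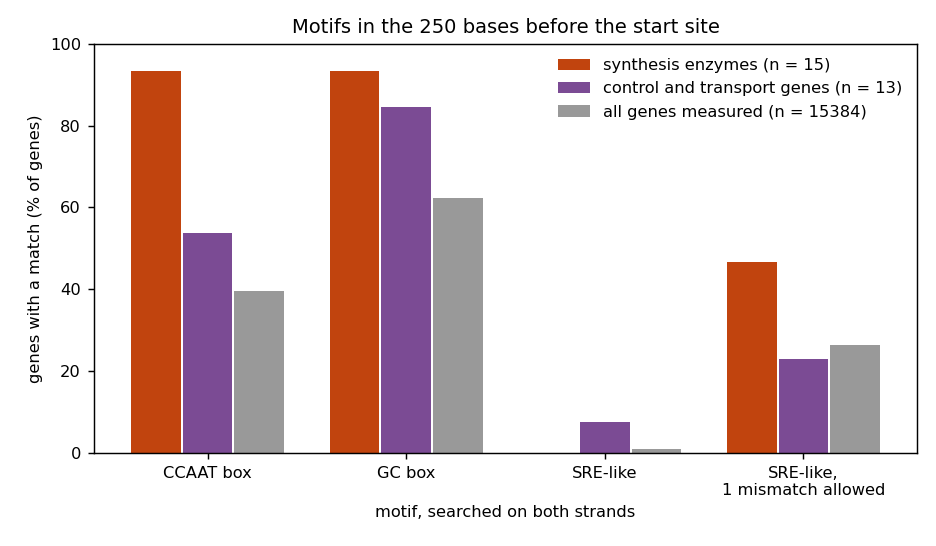
Share of genes (%) with a motif match in the 250 bases before an annotated start site, for 15 synthesis enzymes, 13 control and transport genes and 15384 measured genes. The CCAAT bar of the enzymes reaches 93.3%, against 39.7% for all measured genes, and the exact SRE-like motif is rare in each group.

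The early enzymes of the pathway differed by unequal amounts, and all 16 of their probe sets lay below 0. In PMVK and MVK this included values nearer 0 than the 0.11 of the scaling. ACAT2, the cytosolic thiolase that joins acetyl-CoA units, had a centred value of -0.21 in the CD24 shRNA array, against 0.21 in the control array, a difference of -0.42 on 1 probe set. HMGCS1, which makes HMG-CoA, had mean centred values of -0.27 in the CD24 shRNA array and 0.27 in the control array, a difference of -0.54 ± 0.03 (SD, 2 probe sets). These came before the mevalonate kinases, which differed less. MVK, which phosphorylates mevalonate, lay at -0.20 ± 0.12 (SD, 4 probe sets, from -0.31 to -0.03). PMVK, the next kinase, lay at -0.03, and MVD, the decarboxylase that forms isopentenyl diphosphate, at -0.23, each on 1 probe set. IDI1, the isomerase that follows, lay at -0.22 ± 0.08 (SD, 4 probe sets, 3 of them ending in _x_at, a name given to probe sets that can match several transcripts).

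At the branch to farnesyl diphosphate the values parted. FDPS, farnesyl diphosphate synthase, had a centred value of -0.41 in the CD24 shRNA array, against 0.41 in the control array, a difference of -0.81. Its single probe set was placed at a log2 level of 8 or more, and 0.920% of all genes had a difference as low or lower. GGPS1, which extends farnesyl to geranylgeranyl diphosphate for protein prenylation, lay at -0.19 on both of its probe sets. GGPS1 thus lay below 0 by less than the pooled SD between probe sets of a gene. Genes that use isoprenoids for other ends did not share a side: of 14 measured, 7 lay below and 7 above 0, with a median of 0.02. FNTB, the beta subunit of farnesyltransferase, lay at -0.74 on 1 probe set placed below 4, RABGGTB, a subunit of the transferase that prenylates Rab proteins, at -0.55 (1 probe set) and PGGT1B, a subunit of the type I geranylgeranyl transferase, at 0.39 ± 0.42 (SD, 3 probe sets).

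The enzymes from squalene onward had the lowest median of the 4 groups of sterol genes, -0.50 over 9 genes, against -0.22 over the 8 mevalonate step genes. SQLE, squalene epoxidase, lay at -0.87 ± 0.31 (SD), with 4 probe sets at -1.31, -0.88, -0.66 and -0.63. Its mean centred value was -0.43 in the CD24 shRNA array, against 0.43 in the control array, and each of its probe sets passed 1.5-fold. LSS, lanosterol synthase, which closes the sterol rings, lay at -0.50 ± 0.20 (SD), with 3 probe sets at -0.70, -0.49 and -0.29. TM7SF2, a sterol C14 reductase, lay at -0.51 and MSMO1, the C4 methyl oxidase, at -0.35, each on 1 probe set, that of MSMO1 placed at a level of 8 or more.

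NSDHL, which removes the C4 carboxyl group, lay at -0.45 ± 0.17 (SD, 2 probe sets). HSD17B7, the 3-ketosteroid reductase of this step, had a centred value of -0.43 in the CD24 shRNA array, against 0.43 in the control array, a difference of -0.87. It rests on 1 probe set ending in _x_at, so signal from near-identical transcripts cannot be told apart. EBP, the sterol isomerase, had probe sets at -0.71, -0.70, -0.68 and -0.44, a mean of -0.63 ± 0.13 (SD, 4 probe sets), with mean centred values of -0.32 in the CD24 shRNA array and 0.32 in the control array. Of these, 3 passed 1.5-fold and lay within a narrow range. SC5D, the sterol C5 desaturase, had probe sets that disagreed, at -0.56 and -0.04. DHCR7, which forms cholesterol from 7-dehydrocholesterol, lay at -0.18 ± 0.07 (SD, 2 probe sets), the smallest difference of the sterol steps. LBR, a further C14 reductase outside the 33 genes, lay at -0.38 (1 probe set), FAXDC2 at -0.19 ± 0.29 (SD) and ACAT1, the mitochondrial thiolase, at -0.13 ± 0.30 (SD), on 3 probe sets each.

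**Figure D3:**
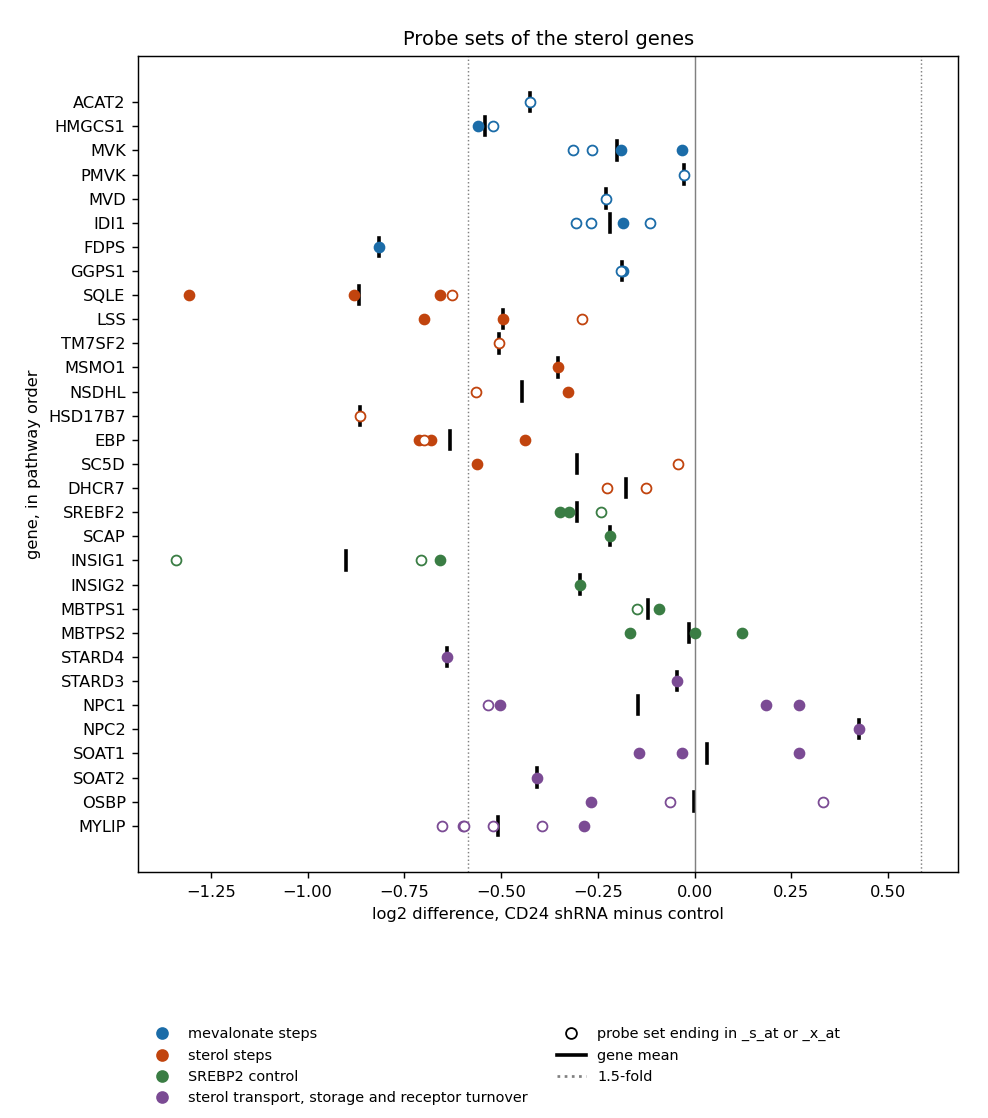
Each point is a probe set, placed by its log2 difference, CD24 shRNA minus control, with genes in pathway order down the page. Open points are probe sets ending in _s_at or _x_at, black bars are gene means and dotted lines mark 1.5-fold. Every point of the 17 enzymes lies left of 0, in PMVK, MVK and SC5D also by less than the 0.11 of the scaling. NPC1, SOAT1, OSBP and MBTPS2 have points on both sides and NPC2 lies at 0.43.

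Among the genes that govern SREBP2, INSIG1 stood lowest. INSIG1, the retention protein that is itself a known target of SREBP2, had probe sets at -1.34, -0.71 and -0.66, a mean of -0.90 ± 0.38 (SD, 3 probe sets). Its mean centred value was -0.45 in the CD24 shRNA array, against 0.45 in the control array, and 0.668% of all genes had a difference as low or lower. The probe sets lay on the same side of 0, and the lowest, which ends in _s_at, stood apart from the other two. INSIG2, a second retention protein, lay at -0.30 on 1 probe set. SREBF2, which encodes SREBP2 and is known to be among its own targets, lay at -0.30 ± 0.06 (SD), with 3 probe sets at -0.35, -0.33 and -0.24. SCAP, the escort protein, lay at -0.22 (1 probe set). The Golgi proteases differed least: MBTPS1, the site-1 protease, lay at -0.12 ± 0.04 (SD, 2 probe sets). MBTPS2, the site-2 protease, had probe sets at -0.17, 0.00 and 0.12, the last placed below 4, so its direction is unresolved.

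Machinery around SREBP2 that was listed for comparison had group medians near 0, over genes on both sides. Of 8 measured genes of sterol-dependent protein degradation, 5 lay below 0 with a median of -0.02, and the largest difference was 0.16 ± 0.20 (SD, 4 probe sets) in UBE2G2, a ubiquitin-conjugating enzyme. ERLIN2 and ERLIN1, membrane scaffolds of that process, lay at -0.12 ± 0.07 (SD, 3 probe sets) and -0.10 ± 0.15 (SD, 2 probe sets). Of 10 genes of the COPII coat, which carries cargo from the endoplasmic reticulum, 4 lay below and 6 above 0 (median 0.04). SEC24D lay at -0.53 ± 0.17 (SD, 3 probe sets), SAR1B at 0.47 ± 0.42 (SD, 5 probe sets) and SEC23A at 0.28 ± 0.19 (SD, 2 probe sets).

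Genes of sterol transport, storage and receptor turnover did not share a direction. Their median was -0.10 over 8 genes, under the 0.11 that the scaling moves, and 2 lay above 0. STARD4, a soluble sterol carrier and known SREBP2 target, had a centred value of -0.32 in the CD24 shRNA array, against 0.32 in the control array, a difference of -0.64 (1 probe set). STARD3, a carrier at the late endosome, lay at -0.05 (1 probe set). NPC2, the lysosomal protein that hands cholesterol to NPC1, had a centred value of 0.21 in the CD24 shRNA array, against -0.21 in the control array, a difference of 0.43, which is 1.34-fold higher on 1 probe set. NPC1, its membrane partner, had probe sets at 0.27, 0.18, -0.50 and -0.53, a mean of -0.15 ± 0.43 (SD, 4 probe sets). A pair of the NPC1 probe sets, at 0.27 and -0.50, were placed below 4, and the other two disagreed as well, so no direction is given for NPC1.

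The esterifying enzymes parted in value. SOAT2, the sterol acyltransferase of hepatocytes and intestine, lay at -0.41 on 1 probe set, whereas SOAT1, the widely expressed form, lay at 0.03 ± 0.21 (SD, 3 probe sets, from -0.14 to 0.27). OSBP, which exchanges sterol for a phosphoinositide at membrane contacts, averaged 0.00 ± 0.30 (SD, 3 probe sets at -0.27, -0.06 and 0.33). MYLIP, the ubiquitin ligase that degrades lipoprotein receptors and is a known target of the oxysterol receptor LXR, had the most probe sets, 6, which lay between -0.65 and -0.29. Its mean was -0.51 ± 0.14 (SD), with mean centred values of -0.25 in the CD24 shRNA array and 0.25 in the control array. MYLIP lay below 0 on every probe set, by 1.42-fold on average.

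Among related genes listed for comparison, those of oxysterols and LXR and of fatty acid synthesis lay mostly below 0. Other sterol transfer proteins lay on both sides. Of 10 measured genes of oxysterols and LXR, 9 lay below 0 (median -0.19), against 47.5% of all genes, and 1 was 1.5-fold lower, against 2.38% of all genes. That gene, ABCG1, a sterol exporter and LXR target, lay at -1.13 ± 0.64 (SD, 4 probe sets, 3 placed below 4). SREBF1, which encodes the lipogenic SREBP1, lay at -0.45 ± 0.06 (SD) and LPCAT3, a phospholipid acyltransferase, at -0.43 ± 0.08 (SD), on 2 probe sets each. Of 16 other sterol transfer proteins, 6, or 37.5%, lay below 0, against 47.5% of all genes, and 10 above (median 0.11). OSBPL3 lay at 0.65 ± 0.20 (SD, 2 probe sets), 1.57-fold higher, OSBPL8 at 0.48 ± 0.26 (SD, 4 probe sets) and TMEM97, a sterol-regulated membrane protein, at -0.54 ± 0.16 (SD, 4 probe sets). The list of fatty acid synthesis, the branch driven by SREBP1, also held triglyceride genes such as GPAM and PNPLA3. Of its 16 measured genes, 15, or 93.8%, lay below 0, against 47.5% of all genes. Their median was -0.37, beside -0.42 for the sterol enzymes. Of these 16, 3, or 18.8%, were 1.5-fold lower, against 2.38% of all genes. These were PNPLA3 and GPAM, both triglyceride genes, and ACSS2, the cytosolic acetyl-CoA synthetase. PNPLA3 lay at -1.30 ± 0.07 (SD) and GPAM at -1.21 ± 0.48 (SD), on 2 probe sets each, and ACSS2 at -1.05 (1 probe set). Each lay further from 0 than the mean of any sterol gene, though single probe sets of INSIG1 and SQLE lay at -1.34 and -1.31. The difference between these groups was not tested.

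**Figure D4:**
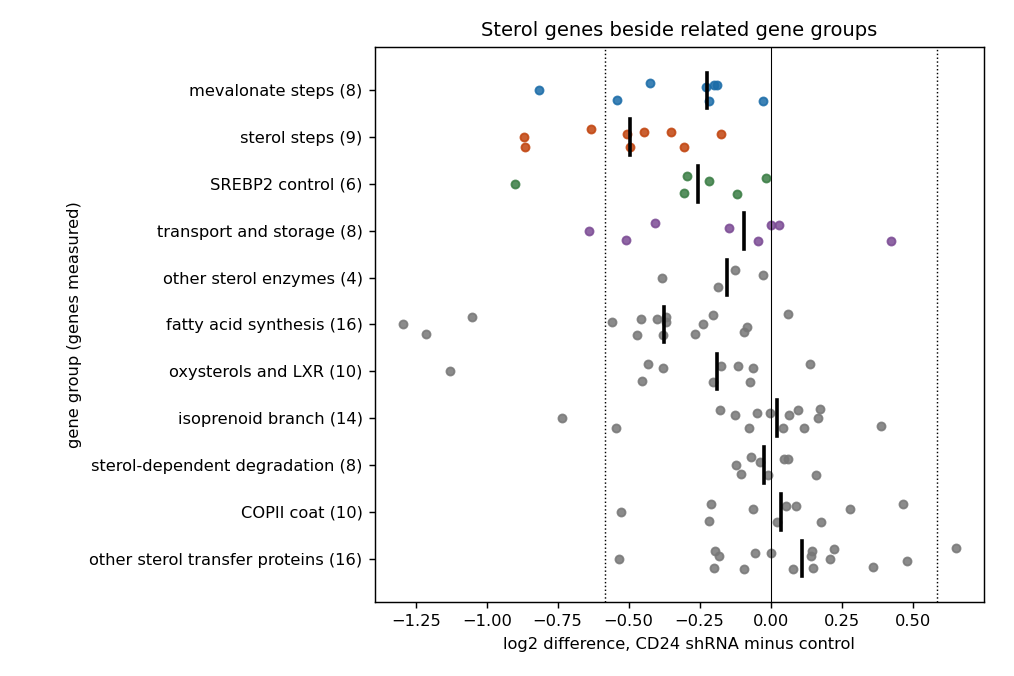
Log2 difference, CD24 shRNA minus control, of each measured gene (points) by gene group, with the group median as a black bar and 1.5-fold as dotted lines. Sterol genes are coloured and comparison groups grey. The medians run from -0.50 for the sterol steps to 0.11 for the other sterol transfer proteins. The group labelled fatty acid synthesis, which includes triglyceride genes, lies at -0.37.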

How the data were processed

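The authors deposited 1 table of log2 values for the 2 arrays, made with RMA (robust multi-array average) per the submitters' processing notes. The sources used here name neither its software nor its version. Within the table the values of a probe set sum to 0 within 1e-06 and each column has a median of 0, so only the difference between the arrays can be read. Higher values stand for more transcript, the direction in which CD24 is lower in its knockdown.

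Probe sets were named through GEO's platform annotation, which can be old. Of 54675, 41091 named 1 gene and were used, 1801 named several and were left out, as were 62 control probe sets. The Entrez ID of 41037 was found in RefSeq (GRCh38.p14) and 0 symbols changed. Genes are means over probe sets, and a fold of 1.5 marks size only. A coarse level class came from the steps of the single-precision numbers: it placed 25.7% of used probe sets below 4 (dimmer array) and left 26087 unplaced.

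The sterol genes and all comparison lists were chosen with earlier results of these data known. All 33 sterol genes are accounted for, with up to 3 of the largest differences in each other list. LRRD1, ALB and TTR were named besides. Alternatives combined or left out probe sets, scaled or centred the arrays, or used a fold of 2 or a log2 difference of 0.32. Calculations (Python 3.11.15, pandas 2.3.3) were tested on simulated data. RefSeq promoters were searched by exact letters, and for the SRE-like motif also with at most 1 mismatch.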

Additional observations from a re-analysis of the deposited data

How the results depend on the processing

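At a threshold of 2-fold 0 sterol genes were lower, and with the threshold at 0.32 on the log2 scale 14 were lower (8.65% of all genes) and 1, NPC2, was higher (9.16% of all genes). With the largest probe set per gene 8 were 1.5-fold lower (5.55% of all genes, against 2.38% as reported), and with hybridisation control scaling 4 (1.53% of all genes). Across 6 other settings, 166 of 180 gene values moved by no more than the SD over the probe sets of the gene and 14 by more. For the 13 genes with 1 probe set the pooled SD of 0.27 was used, and settings that combine probe sets cannot move them. The scaling shift of 0.11 cannot pass that limit either. Centring on the median of all genes subtracts 0, so it moves no value. Leaving out probe sets placed below 4 can change only MBTPS2 and NPC1. Many of the 166 were thus fixed in advance, and the count does not measure robustness. Of the 180, 6 values, in SOAT1, OSBP, PMVK, MBTPS2 and STARD3, lay on the other side of 0. Without probe sets ending in _s_at or _x_at, ACAT2, PMVK, MVD, TM7SF2, HSD17B7 and DHCR7 had no value, and LSS passed 1.5-fold. In that setting 6 of 25 sterol genes were 1.5-fold lower, against 2.53% of all genes. Without probe sets placed below 4, 6 were 1.5-fold lower (2.87% of all genes) and 29 below 0 (46.4% of all genes), among 16391 genes. A filter on the level itself could not be run, because the table holds no levels. No paired analysis was possible because each group held 1 array.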

Other observations

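The probe sets left out because they name several genes gave these values. Both probe sets that name CYP51A1, lanosterol demethylase, together with LRRD1 lay below 0, at log2 differences of -0.33 and -0.17, CD24 shRNA minus control. LRRD1 on a probe set of its own lay at 0.17. A probe set that names MBTPS2 together with YY2 lay at 0.26.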
